A study of Mus musculus with 41 samples.

Results

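Elastic fibre genes were followed through fetal mouse lung as the 10 genes Eln, Fbn1, Fbn2, Fbln1, Fbln2, Fbln5, Lox, Loxl1, Mfap4 and Mfap5, read by symbol from the 24371 genes of each of the 4 deposited count tables. All 10 were present in every table. The RNA came from 11 bulk libraries and 26 cells profiled singly. In the first set, mice of the genotypes Twist2Cre;Rosa26mT/mG and Rosa26mT/mG were mated, dams received 1 mg/kg dexamethasone, a synthetic glucocorticoid, or saline at E18.5, and lungs were taken 2 hours later and pooled by genotype. The tdTomato-negative, GFP-positive cells in which Twist2Cre had recombined the reporter were then sorted as mesenchyme, giving 4 dexamethasone and 2 saline pools. The reporter marks cells by past Cre activity, so these are the cells Twist2Cre reached rather than all lung mesenchyme. In the second set, CD106+ cells, which bear the protein made from Vcam1 on their surface, were compared with CD106- cells at E18.5, with 2 libraries a fraction and no strain stated for the RNA. A further CD106+ library came from 1 mg/kg dexamethasone, with no injection time in the labels. In the third, dams of wild-type C57Bl6/J mice mated at 8 weeks of age received 2 mg/kg dexamethasone or saline at E17.5, and 24 hours later 15 and 11 fetal lung cells were profiled individually. No label of these groups names a deleted gene. Accessibility samples of CD106+ cells, 4 in number, were not analysed here.

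Elastic fibres let the lung recoil after each breath, and most are laid down around birth and during the growth of alveoli. Tropoelastin, the soluble product of Eln, is secreted, gathered into droplets, placed on a scaffold of fibrillin microfibrils and cross-linked there through its lysines. Fibrillins Fbn1 and Fbn2 build the scaffold, with Fbn2 typical of the embryo, and the microfibril-associated proteins Mfap4 and Mfap5 bind to it. Fibulins Fbln1, Fbln2 and Fbln5 sit in or on the fibre, Fbln5 tethering tropoelastin and the cross-linking enzyme Loxl1 to it, and Lox and Loxl1 carry out the cross-linking. In the lung, fibroblasts and smooth muscle cells are known as the main sources.

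Promoter sequence from RefSeq (GRCm38.p6) was given for 4 of the 10 members, and for 2 of these a start site lay at the outer end of the annotated gene, so that the 250 bases before it lie outside the gene. They are shown because Fbln5 was among the members called lower in dexamethasone than in saline mesenchyme and its relative Fbln1 was not. Capitals mark the GC box CCGCCC in Fbln5, which reads GGGCGG on the other strand. In Fbln1 they mark the element TGTTCT, which reads AGAACA on the other strand and is a single arm of the palindrome that the glucocorticoid receptor binds. Fbln5 lies on the minus strand of chromosome 12, and its stretch is chr12:101819120-101819369. Fbln1 lies on the plus strand of chromosome 15, and its stretch is chr15:85205699-85205948.
Fbln5: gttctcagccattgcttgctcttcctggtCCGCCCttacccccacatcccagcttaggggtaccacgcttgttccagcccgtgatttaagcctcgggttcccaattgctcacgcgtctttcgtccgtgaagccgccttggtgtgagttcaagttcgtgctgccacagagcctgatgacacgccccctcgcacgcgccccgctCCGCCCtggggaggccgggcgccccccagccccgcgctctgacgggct
Fbln1: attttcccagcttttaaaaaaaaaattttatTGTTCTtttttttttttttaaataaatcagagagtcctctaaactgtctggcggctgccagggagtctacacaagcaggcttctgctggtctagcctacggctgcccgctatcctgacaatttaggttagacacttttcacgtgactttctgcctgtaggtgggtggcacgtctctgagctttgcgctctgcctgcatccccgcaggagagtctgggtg
The GC boxes of Fbln5 begin at -221 and -48 from the start site, and the receptor arm of Fbln1 begins at -219. Before the other start site given for each gene, Fbln1 had a GC box at -11 and no receptor arm, and Fbln5 had neither element. Searched on both strands, a GC box was in 32.7% and a receptor arm in 16.1% of 32841 promoter windows of the same length, whereas the whole palindrome, in which the arms AGAACA and TGTTCT stand 3 bases apart, was in 3 of them. The palindrome was in neither stretch. Of all bases, 65.2% were G or C in the Fbln5 stretch and 46.4% in that of Fbln1, beside a median of 52.4% over all windows.

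Levels are given as CPM, each library's counts scaled to the same total, without correction for gene length, so levels are compared between libraries and not between genes. Bulk libraries held 1670896 to 7133941 counts and single cells 215623 to 1787997. Vcam1 stood at 551 and 687 CPM in the CD106+ libraries and at 1.3 and 3.0 in the CD106- libraries. The glucocorticoid target Fkbp5 stood at 176 to 260 CPM in dexamethasone mesenchyme and at 28.7 and 40.7 in saline mesenchyme. Epithelial transcripts, summed over 8 markers, made 2582 to 6075 CPM in the CD106 fractions and 3.8 to 199 in the mesenchyme pools, so both fractions held RNA of epithelial cells. The labels name no litters for pools or fractions, so each p-value reflects only how far these particular samples vary, and part of that variation may be technical. In bulk RNA, fewer cells of a type and less RNA per cell cannot be told apart.

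Together the 10 members took 1.37 and 1.62% of all counts in saline mesenchyme and 1.65 to 2.29% in dexamethasone mesenchyme. Their share was 0.465 and 0.862% in CD106+ cells, 0.201 and 0.257% in CD106- cells and 0.979% in the dexamethasone CD106+ library. Among the 5 bulk groups, mean levels of 9 of the 10 genes were highest in 1 of the mesenchyme groups. Fbn2 was the exception, with its highest mean in CD106- cells.

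**Figure D1:**
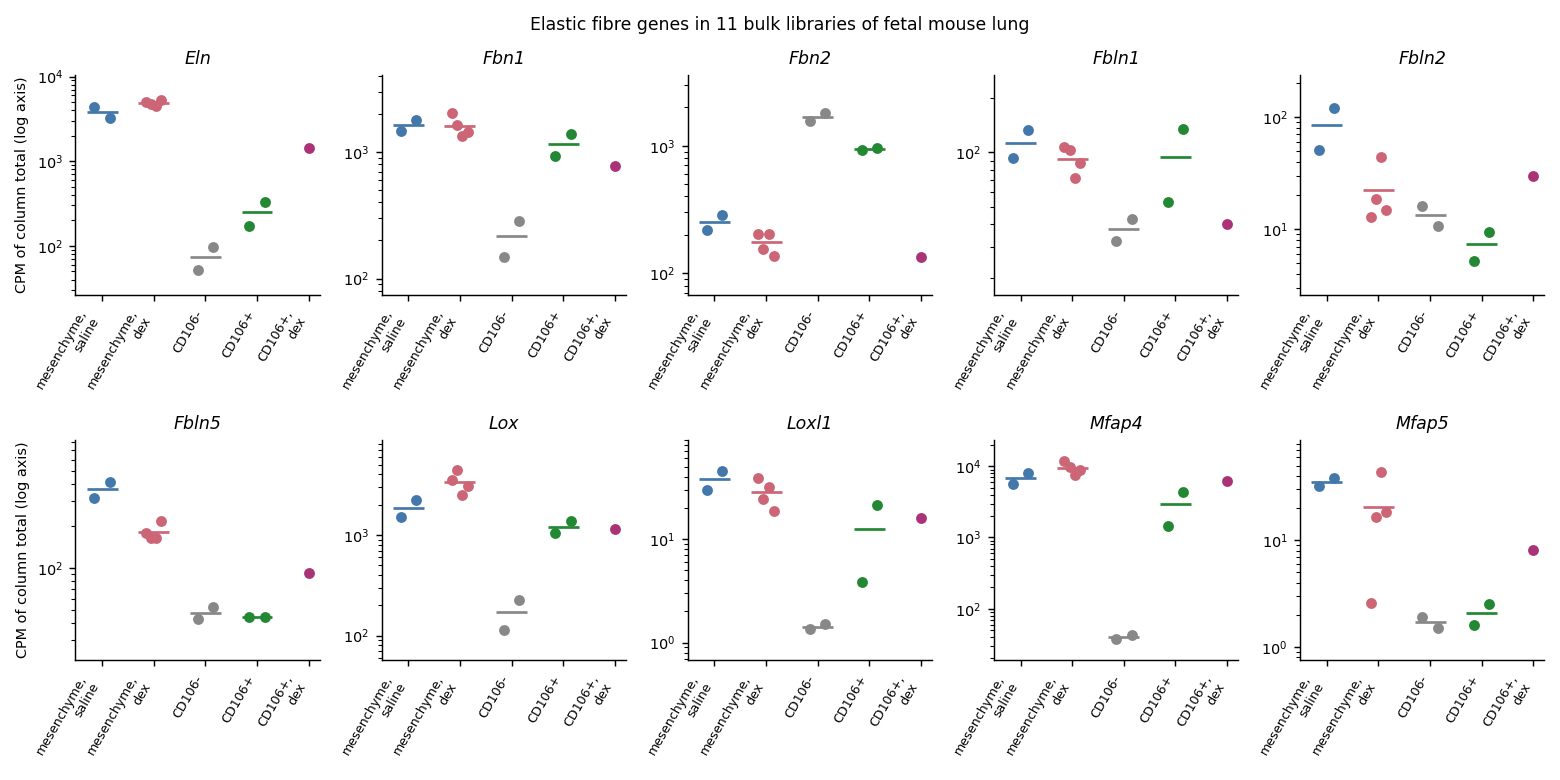
Level of each elastic fibre gene in 11 bulk libraries, as CPM of the library total on a log axis whose range differs between genes. Points are libraries and bars are group means (mesenchyme: 2 saline, 4 dexamethasone pools; CD106- and CD106+: 2 each; dexamethasone CD106+: 1); Fbn2 alone has its highest points, 1565 and 1808 CPM, in CD106- cells.

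Within sorted mesenchyme, dexamethasone pools were compared with saline pools, both taken 2 hours after injection. The fibulins Fbln5 and Fbln2 were lower in dexamethasone pools, and neither Eln, the scaffold genes nor the cross-linking enzymes passed the test. The pools also differed in Xist and in chondrocyte and cell cycle markers. Neither fibulin was called with any of these as a covariate. edgeR's quasi-likelihood test called 2 of 10 members lower and 0 higher at an adjusted p of 0.05, where 2.69% of 11356 genes were called in either direction, 0.74% lower and 1.95% higher. At an unadjusted p under 0.05 edgeR had 2 members higher, Lox and Mfap4, and 2 lower, beside 1569 of all 11356 genes in either direction. DESeq2 called 1 higher, Lox, and the same 2 lower. The median log2 change of the members was -0.28 beside -0.012 over all genes tested. Groups did not overlap for 5 members, Eln and Lox higher and Fbn2, Fbln2 and Fbln5 lower, where 23.0% of all genes did not overlap, 9.99% higher and 13.0% lower.

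Fbln5 (chromosome 12, 101746565 to 101819119) stood at 178, 163, 164 and 218 CPM in dexamethasone pools 1 to 4 and at 320.2 and 417 CPM in saline pools 1 and 2. Every dexamethasone pool lay below both saline pools. Its log2 fold change was -0.96 (SE 0.22, edgeR adjusted p = 0.021), a 1.94-fold lower level. The call was lost without saline pool 2 (adjusted p = 0.17) and without dexamethasone pool 1, 2 or 3 (0.057, 0.062 and 0.053), at changes of -0.80 to -0.95.

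Fbln2 (chromosome 6, 91212460 to 91272540), a fibulin found at elastic fibres of vessel walls and in basement membranes, stood at 12.8, 18.7, 44.1 and 14.7 CPM in the dexamethasone pools and at 50.3 and 119 CPM in the saline pools. The groups did not overlap, although dexamethasone pool 3 came near saline pool 1. Its log2 fold change was -1.85 (SE 0.45, edgeR adjusted p = 0.042). Without saline pool 2 it was -1.15 (adjusted p = 0.37), and the call was also lost without dexamethasone pool 1, 2 or 4 (0.099, 0.13 and 0.12).

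Both calls stood beside other differences between the same pools. Xist, transcribed from the inactive X chromosome of females, was at 33133 and 20880 CPM in saline pools and at 374, 11111, 12.6 and 6.6 in dexamethasone pools, while Ddx3y of the Y chromosome was at 1.2 and 0 against 74.4 to 174. Col2a1, the cartilage collagen, was at 1090.4 and 403 CPM against 6.2 to 247, and the summed level of 10 chondrocyte markers was 1570.4 and 634 against 15.4 to 394. Mki67, a marker of dividing cells, was at 765 and 1092 CPM against 359 to 612. The 10 smooth muscle markers summed to 1938 and 2436 CPM against 1290.1 to 1372, with Acta2 at 743 and 1135 against 504 to 541. Of these 10, 5 were lower without overlap, beside 13.0% of all genes tested. None passed edgeR's adjusted threshold (5 were lower at an unadjusted p under 0.05, and 1 by DESeq2). The part of the smooth muscle markers in the members' values was not tested. With the log level of Xist as a covariate, Fbln2 was at -2.45 (edgeR adjusted p = 0.11) and Fbln5 at -1.17 (0.077). With the mean log level of the chondrocyte markers as a covariate, Fbln2 was at -0.77 (edgeR adjusted p = 0.99) and Fbln5 at -1.11 (0.59). With the mean log level of the cell cycle genes, Fbln2 was at -0.31 (edgeR adjusted p = 0.94) and Fbln5 at -0.80 (0.60). Xist and the summed CPM of both marker lists did not overlap between saline and dexamethasone pools. Their part and that of the treatment cannot be told apart.

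Of the cross-linking enzymes, Lox (chromosome 18, 52516060 to 52529867), lysyl oxidase, stood at 3501, 4403, 2477 and 3048 CPM in the dexamethasone pools and at 1507 and 2222 CPM in the saline pools. All dexamethasone pools were above both saline pools. The change of 0.92 (SE 0.25) missed the threshold in edgeR (adjusted p = 0.061) and passed it in DESeq2 (0.0070), without the filter on low counts (0.0042), without dexamethasone pool 3 (0.033) and with Xist as a covariate (1.34, p = 0.014). With a library left out the change ran from 0.72 to 1.18, and Lox was not called without dexamethasone pool 1, 2 or 4. With the mean log level of the chondrocyte markers as a covariate it was 0.26 (edgeR adjusted p = 0.996). Nor was Lox called with the cell cycle genes as a covariate. Lox counts were not whole in 21 of 37 libraries and cells, and what the fractions stand for is not given in the sources used here. Loxl1 (chromosome 9, 58287723 to 58313212), the enzyme tied to elastic fibre upkeep, stood at 18.48 to 38.4 CPM against 29.9 and 45.2, with overlapping groups (-0.34, SE 0.38, adjusted p = 0.78).

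Eln itself (chromosome 5, 134702595 to 134747368) stood at 5036, 4714.5, 4517 and 5277 CPM in the dexamethasone pools and at 4422 and 3226.5 CPM in the saline pools. The groups did not overlap, but saline pool 1 lay within 100 CPM of dexamethasone pool 3. Its log2 fold change of 0.41 (SE 0.23, edgeR adjusted p = 0.48) did not pass the test.

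Among the scaffold genes, Fbn1 (chromosome 2, 125300594 to 125506485), the main fibrillin of the adult, stood at 2053, 1642, 1340.2 and 1448 CPM against 1455.5 and 1794 in saline. Its groups overlapped throughout (0.06, SE 0.22, adjusted p = 0.95). Fbn2 (chromosome 18, 58008623 to 58210572) stood at 138 to 205 CPM against 219 and 285, lower in all 4 dexamethasone pools without passing the test (-0.46, SE 0.23, adjusted p = 0.40). Mfap4 (chromosome 11, 61485431 to 61488708), which binds tropoelastin and fibrillin, stood at 11757, 9797, 7619 and 9003 CPM against 5594 and 7940, and dexamethasone pool 3 fell below saline pool 2 (0.57, SE 0.24, adjusted p = 0.29). Mfap5 (chromosome 6, 122513584 to 122529290), a microfibril glycoprotein, ranged from 2.6 to 43.7 CPM in the dexamethasone pools around saline values of 32.3 and 38.2 (-0.76, SE 0.73, adjusted p = 0.74). Fbln1 (chromosome 15, 85205949 to 85286294), a fibulin that binds fibronectin as well as elastin, overlapped too, at 72.1 to 107 CPM against 92.8 and 133 (-0.22, SE 0.26, adjusted p = 0.80).

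CD106+ cells were compared with CD106- cells to see which members went with the marker. 6 of the 10 members were higher in CD106+ cells, at least 1 for each role: Eln, the scaffold genes Fbn1 and Mfap4, the enzymes Lox and Loxl1, and Fbln1. edgeR called 6 higher and 0 lower where 10.0% of 12364 genes were called, 6.67% higher and 3.35% lower. At an unadjusted p under 0.05 edgeR had 6 members higher and 1 lower, beside 2445 of all 12364 genes in either direction. DESeq2 called 6 higher and 1 lower. The lower member was Fbn2 in both. The median log2 difference was 1.47 for the members and 0.046 for all genes tested.

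Mfap4 stood at 1462 and 4359 CPM in CD106+ libraries 1 and 2 and at 37.7 and 42.1 in CD106- libraries 1 and 2. The lower CD106+ library was far above both CD106- libraries. Its log2 difference was 6.11 (SE 0.49, edgeR adjusted p = 2.1e-08), and it stayed at 5.22 or more whichever library was left out.

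Lox stood at 1046 and 1365 CPM against 114 and 228 (2.75, SE 0.37, edgeR adjusted p = 9.7e-06). Fbn1 stood at 927 and 1393 CPM against 148 and 285 (2.35, SE 0.36, edgeR adjusted p = 6.5e-05). Eln stood at 171 and 329.8 CPM against 52.5 and 95.9 (1.68, SE 0.34, edgeR adjusted p = 0.0024). For all of these the fractions did not overlap, which held for 47.7% of all 12364 genes tested (25.7% higher, 22.1% lower). Without CD106- library 1 the calls of Fbn1 and Eln were lost (1.92, adjusted p = 0.055, and 1.27, 0.14), and that of Lox was kept.

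Loxl1 and Fbln1 depended on a single CD106+ library. Loxl1 stood at 3.8 and 21.3 CPM against 1.3 and 1.5 (3.04, SE 0.75, edgeR adjusted p = 0.0095), from 16 counts in all in the CD106- libraries. Fbln1 stood at 53.3 and 135 CPM against 32.3 and 42.6 (1.26, SE 0.35, edgeR adjusted p = 0.025). Without CD106+ library 2 neither was called (Loxl1 1.44, adjusted p = 0.61; Fbln1 0.54, 0.37), and Fbln1 was also lost without CD106- library 1 (1.02, 0.28). Library 2 had the higher level of all 6 called members in both fractions. The CD106+ libraries also differed in the sum of 6 cardiac muscle markers, at 4140.5 CPM in library 1 and 114 in library 2.

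Fbn2 ran the other way. It stood at 932 and 964 CPM in CD106+ cells and at 1565 and 1808 in CD106- cells, with no overlap. A lower level without overlap was seen for 22.1% of all genes tested. Fbn2 differed by -0.88 (SE 0.33, edgeR adjusted p = 0.11). DESeq2 called it (-0.90, adjusted p = 0.0098), as did edgeR without CD106+ library 1 (1.9e-04) or 2 (0.0043). Fbln5 at 44.5 and 44.2 against 43.1 and 52.1 CPM, Fbln2 at 5.2 and 9.5 against 16.2 and 10.7, and Mfap5 at 1.6 and 2.5 against 1.9 and 1.5 did not pass the test. The SE of Mfap5, 0.87, was the widest of the 10 in this comparison.

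Epithelial markers lay on the opposite side from the called members: 5 of 8 were lower in CD106+ cells, and their sum was 2582 and 4229 CPM against 6075 and 5427. Mesothelial markers (4 of 8 tested lower) and erythroid markers (4 of 4 tested lower) also lay opposite, with sums of 62.6 and 107 against 231 and 205 CPM and of 7.1 and 9.7 against 40.5 and 70.7 CPM. Matrix fibroblast markers, Vcam1 among them, lay on the same side, with 8 of 10 higher and a sum of 6228 and 7343 CPM against 1254 and 1542. So did adventitial fibroblast markers (6 of 7 tested higher; sum 417 and 664 against 97.3 and 97.7 CPM) and endothelial markers (5 of 7 tested higher; 122 and 95.6 against 20.4 and 14.8 CPM). Of 9 myofibroblast markers tested, 4 were higher and 0 lower, beside 6.67% and 3.35% of all genes tested. Their sums were 1411 and 1721.5 against 412 and 913 CPM. Of 10 smooth muscle markers 1 was higher, Des, and their sums overlapped, at 385 and 783 against 191 and 394 CPM. The part of any of these lists in the members' differences was not tested.

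**Figure D2:**
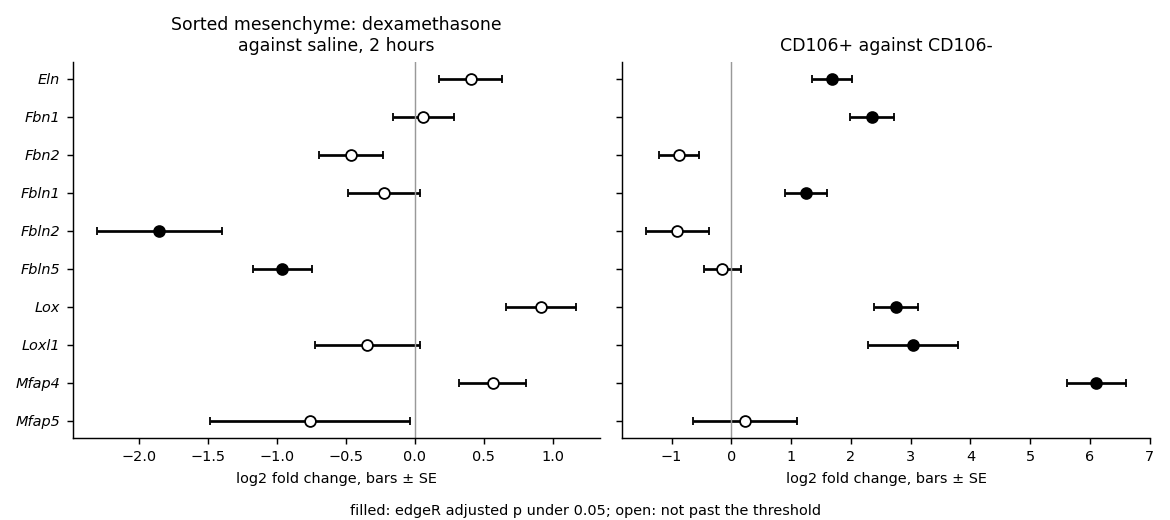
log2 fold change of each elastic fibre gene, with bars of 1 SE, for dexamethasone against saline mesenchyme (left; 4 and 2 pools) and CD106+ against CD106- cells (right; 2 libraries each), filled where edgeR's adjusted p is under 0.05. Fbln2 and Fbln5 are the filled points on the left, at -1.85 and -0.96, and 6 filled points on the right run from 1.26 for Fbln1 to 6.11 for Mfap4.

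The balance of the fibrillin counts differed between preparations. The ratio of Fbn2 to Fbn1 counts, read only as it moves between libraries since neither gene's length is corrected, was 0.0946 to 0.151 in dexamethasone mesenchyme and 0.150 and 0.159 in saline mesenchyme. It was 1.01 and 0.692 in CD106+ cells, 10.6 and 6.35 in CD106- cells, and 0.174 in the dexamethasone CD106+ library. Fbn2 was at 932 to 1808 CPM in all 4 untreated CD106 libraries and at 135 to 285 in the other 7 libraries, so the dexamethasone CD106+ library lay with the mesenchyme. Lox counts per Eln count were 0.341 to 0.934 in mesenchyme, 6.10 and 4.14 in CD106+ cells, 2.17 and 2.38 in CD106- cells and 0.793 in the dexamethasone CD106+ library. Both ratios thus set the 4 libraries of the CD106 table apart from the rest. Tables were deposited separately, and no test was run across them.

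**Figure D3:**
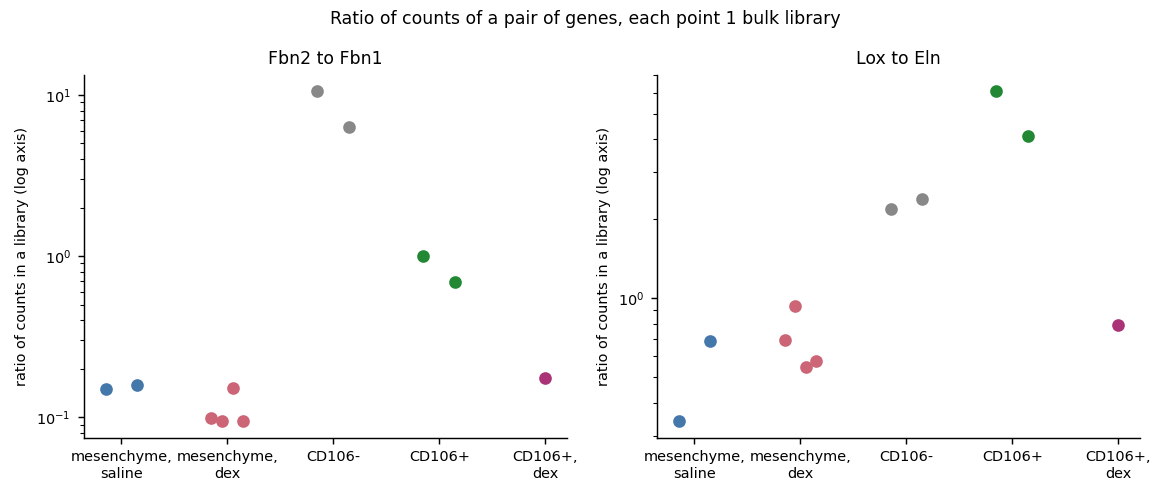
Ratio of Fbn2 to Fbn1 counts (left) and of Lox to Eln counts (right) in each of 11 bulk libraries, on log axes, without correction for length. CD106- cells are highest on the left, at 10.6 and 6.35, CD106+ cells on the right, at 6.10 and 4.14, and the dexamethasone CD106+ library lies near the mesenchyme pools in both.

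The single dexamethasone CD106+ library allows no test, and its values are set beside the 2 untreated CD106+ libraries. Past 2-fold, with 10 CPM or more in either group, 4 members were higher (Eln, Fbln2, Fbln5, Mfap4) and 2 lower (Fbn2, Fbln1) of the 9 at that level, where 29.6% of 9792 genes were past 2-fold, 11.9% higher and 17.7% lower. Eln stood at 1434 CPM (95% Poisson interval 1396 to 1472.5, counting error only) against 171 and 329.8, 5.70-fold above their mean on the scale of CPM plus 1. Fbn2 stood at 135 CPM (124 to 147) against 932 and 964, 6.97-fold lower. Both lay outside the untreated libraries by more than these differed from each other.

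Fbln2 stood at 29.8 CPM (24.6 to 35.8) against 5.2 and 9.5, and Fbln5 at 91.8 CPM (82.4 to 102) against 44.5 and 44.2. Mfap4 stood at 6124 CPM against 1462 and 4359, and was past 2-fold against library 1 alone but not against library 2. Fbln1 stood at 39.8 CPM (33.7 to 46.7) against 53.3 and 135, past 2-fold against library 2 and not against library 1. Lox at 1136.5 CPM lay between the untreated values of 1046 and 1365, Loxl1 at 16.1 between 3.8 and 21.3, and Fbn1 at 775 below 927 and 1393. Mfap5 had 31 counts (8.2 CPM) and stayed under 10 CPM in both groups.

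This library also stood apart in its makeup. Vcam1 was at 268 CPM against 551 and 687, Pecam1 of endothelial cells at 508 against 22.1 and 16.54, and the sum of 8 endothelial markers at 2380 against 122 and 95.6. Epcam was at 27.4 CPM against 205 and 198, and the 8 cell cycle genes summed to 1464 against 4934 and 3778. The 10 matrix fibroblast markers, Vcam1 among them, summed to 12108 CPM against 6228 and 7343. Of these, 3 were past 2-fold higher and 1, Vcam1, lower, beside 11.9% and 17.7% of all genes. The 10 myofibroblast markers summed to 655 CPM against 1411 and 1721.5, with 2 past 2-fold higher and 5 lower of 8 at 10 CPM. The part of all these genes in the members' values was not tested.

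In single cells each treatment is 1 sample, so cells describe the spread and no test was made. The labels describe digested lung with no sort, and the cells were of mixed types. Pecam1 was above 100 CPM in 1 of 15 dexamethasone and 5 of 11 saline cells. Of 8 epithelial markers, Epcam alone had no count in any cell. Their sum had a median of 237 and a highest cell of 8974 CPM in dexamethasone cells, and 69.6 and 700 in saline cells. The 4 that reached 10 CPM had means more than 2-fold higher in dexamethasone cells. The 6 erythroid markers summed to at most 185050 CPM in dexamethasone cells and 0.86 in saline cells, with medians of 4.9 and 0. All 10 smooth muscle markers had a mean more than 2-fold lower in dexamethasone cells (Acta2 at 662 against 2989 CPM), and 7 of 10 matrix fibroblast markers had one more than 2-fold higher. Over all 8804 genes at 10 CPM, 37.0% were past 2-fold lower and 29.4% higher. Summed per cell, smooth muscle markers had a median of 320.5 against 207 CPM and a highest cell of 6470 against 58014, and matrix fibroblast markers a median of 27434 against 11154. The part of these markers in the members' values was not tested. All 15 dexamethasone columns carry a name prefix that 0 saline columns have, and 1 position code occurs in both treatments, so treatment and capture run cannot be told apart. Fkbp5 and Tsc22d3, both higher in dexamethasone mesenchyme, stood lower in dexamethasone cells, at means of 49.99 against 116 and 156 against 772 CPM. Past 2-fold were 4 of 9 members at 10 CPM, Mfap4 and Fbln5 higher and Fbn2 and Mfap5 lower, where 66.4% of 8804 genes were past 2-fold.

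Eln had counts in all 26 cells. It ran from 417 through a median of 2409 to 6700 CPM in dexamethasone cells and from 3.7 through 1584 to 6228 in saline cells, with 15 of 15 and 8 of 11 cells at 100 CPM or more (95% Clopper-Pearson intervals 78.2 to 100% and 39.0 to 94.0%). The treatments overlapped over most of their range, and the cells under 100 CPM were all saline cells. Without cells above 100 CPM of Pecam1, the Eln means were 2890 CPM in dexamethasone cells and 2829 in saline cells. The medians were then 2421 and 3019 CPM, so their order turned. Mfap4 ran from 23.2 through 14873 to 22594 CPM against 3.9 through 2690 to 11643, also with wide overlap. Its ratio of means was 1.59 on the log2 scale, and 1.52 without cells above 100 CPM of Pecam1.

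Fbn1 ran to 5537 CPM with a median of 127 in dexamethasone cells and to 2454 with a median of 574 in saline cells, while its means were alike at 773 and 772 CPM. A single dexamethasone cell held 47.7% of that group's Fbn1 sum. Lox had medians of 302 and 358 CPM and a highest cell of 2312 and 2451, and Loxl1 medians of 28.6 and 101 with highest cells of 801 and 482. After thinning each cell to 215622 counts the Lox medians were 315 and 301 CPM, so their order turned, and those of Loxl1 were 27.8 and 107.

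Fbn2 had counts in 5 of 15 dexamethasone cells, the highest at 51.0 CPM, and in 7 of 11 saline cells, the highest at 453 CPM. After the same thinning it was found in 4 and 5 cells. Fbln5 had medians of 12.7 and 1.3 CPM, and 5 dexamethasone cells and 1 saline cell reached 100 CPM. The latter cell held 94.8% of the saline sum, and without cells above 100 CPM of Pecam1 the log2 ratio of means turned from 1.11 to -0.27. Fbln1 reached 713 and 606 CPM with medians of 3.3 and 1.0, and without those cells its log2 ratio went from 0.13 to 1.28, past 2-fold. Fbln2 never passed 12.5 CPM. Mfap5 had no count in 15 dexamethasone cells. By the rule of 3, which divides 3 by the number of cells, up to 20.0% of such cells could have a count (95% confidence). This limit too takes the cells as independent draws. Mfap5 was found in 2 of 11 saline cells, 1 of which held 90.7% of the sum.

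**Figure D4:**
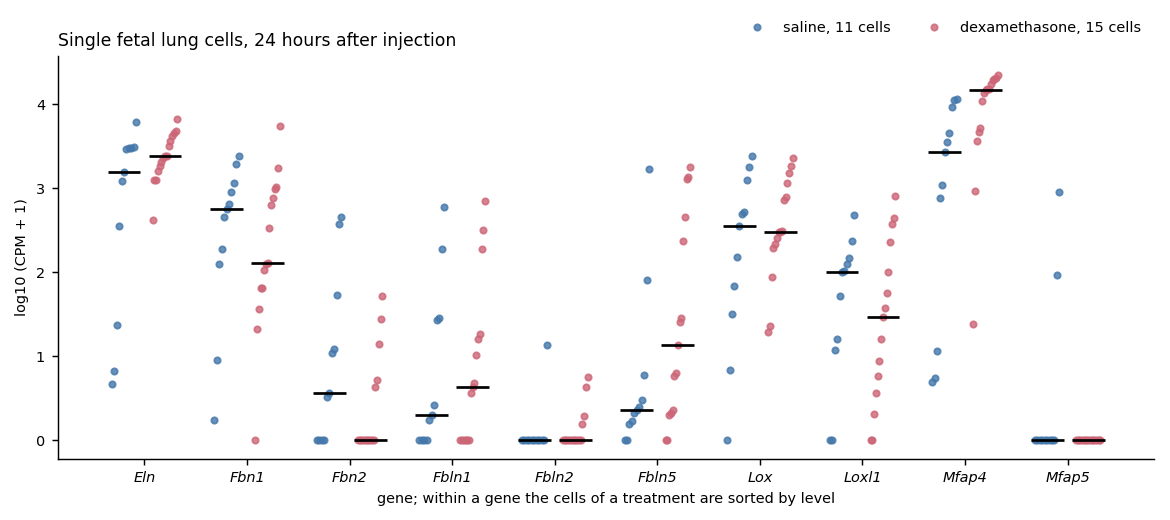
Level of each elastic fibre gene in 15 dexamethasone and 11 saline cells as log10(CPM + 1), each point 1 cell, sorted by level within a treatment, with bars at the median. Eln and Mfap4 have counts in every cell, Fbn1, Lox and Loxl1 in most, and Fbn2, Fbln1, Fbln2, Fbln5 and Mfap5 have medians under 20 CPM in both treatments.

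A wider list of 30 assembly partners, proteins that help to build, place or activate the fibre, gave 1 gene higher and 1 lower of 29 tested in mesenchyme, beside 1.95% and 0.74% of all genes tested. Adamtsl2, a secreted glycoprotein that binds fibrillin, stood at 60.8, 49.96, 46.8 and 44.5 CPM after dexamethasone and at 18.6 and 20.2 after saline. Its groups did not overlap (1.45, SE 0.35, edgeR adjusted p = 0.033), and the call was lost in all leave-one-out fits but that without dexamethasone pool 3 (adjusted p 0.044 to 0.13 over the 6 fits). Thsd4, which promotes fibrillin microfibril assembly, stood at 49.5, 22.4, 68.4 and 56.2 CPM against 143 and 129. It was lower in every dexamethasone pool (-1.41, SE 0.34, edgeR adjusted p = 0.032) and not called without dexamethasone pool 1 or 4 or either saline pool. Neither passed with chondrocyte markers as a covariate (adjusted p = 0.90 and 0.99). Of 14 elastases and inhibitors, 6 were tested in mesenchyme and edgeR called none, with 1 higher at an unadjusted p under 0.05 and 1 higher by DESeq2.

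Between the CD106 fractions, 10 of 29 partners were higher in CD106+ cells and 1 was lower, beside 6.67% and 3.35% of all genes tested. The fibronectin gene Fn1 stood at 1299.9 and 2621.5 CPM against 239 and 274 (2.87, SE 0.37, edgeR adjusted p = 4.3e-06). Bgn and Dcn, small proteoglycans that bind collagen and elastin, differed by 2.52 and 2.29 on the log2 scale (edgeR adjusted p = 9.7e-06 and 1.1e-05), and Emilin1, a glycoprotein at the face between elastin and microfibrils, by 3.51 (4.9e-05). Mfap2, another microfibril protein, differed by 3.66, the protease Adamts10 by 1.97, the oxidase Loxl2 by 1.68 and the TGF-beta binding protein Ltbp4 by 1.85 (edgeR adjusted p = 2.9e-04, 2.4e-04, 3.4e-04 and 0.0026). Loxl2 lost its call without CD106- library 1 (1.35, adjusted p = 0.076). Efemp1, known as fibulin-3 and named because it was the only partner lower, stood at 28.9 and 23.7 CPM against 68.1 and 54.3 (-1.25, SE 0.32, edgeR adjusted p = 0.011), and was not called without either CD106- library. Among 7 elastases and inhibitors tested, the gelatinase Mmp2 was higher, at 183 and 542 CPM against 22.5 and 46.3 (3.30, SE 0.57, edgeR adjusted p = 0.011).

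In the untested comparisons the partners past 2-fold were 5 higher and 7 lower of 27 in the dexamethasone CD106+ library, beside 11.9% higher and 17.7% lower over all genes, led by Tll1, a protease related to Bmp1, at 13.2 against a mean of 0.76 CPM and the proteoglycan gene Vcan at 646 against 2326. In single cells 8 were higher and 5 lower of 25, beside 29.4% higher and 37.0% lower over all genes. The largest ratios were those of Thsd4, at 0.25 against 63.2 CPM, and Adamtsl5, with no count in dexamethasone cells against a mean of 48.8. Both saline means rest on few cells: Thsd4 had a count in 2 of 11, the highest at 687 CPM, and Adamtsl5 in 1, at 537 CPM. Elastases and inhibitors gave 3 higher and 1 lower of 7 in the library, among them the inhibitor Timp3 at 1516 against 497 CPM and Mmp2 at 104 against 362.5.

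By likeness of profile over the 11 bulk libraries, measured as the root mean square difference of centred log2(CPM + 1) among 6681 genes with a mean of 20 CPM or more, the gene nearest to Eln was Cp, the ferroxidase ceruloplasmin, at 0.35. Cp stood at 504 to 903 CPM in dexamethasone mesenchyme, 379 and 322 in saline mesenchyme, 20.5 and 32.7 in CD106+ cells, 5.4 and 6.7 in CD106- cells and 226 in the dexamethasone CD106+ library. Penk, Mchr1 and Spon1 were also near, at 0.47 to 0.49. No member was as near, the nearest to Eln being Lox at 1.27. The closest members of all were Fbn1 and Lox, at 0.55, followed by Fbln1 and Loxl1, each nearest to Fbn1 at 0.66, whereas Fbn2 was 1.78 from its nearest, Fbln1. The mesenchyme, CD106 and dexamethasone CD106+ libraries came in separate tables and preparations, and the gaps between these enter every distance.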

How the data were processed

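The 4 deposited tables hold expected counts per gene symbol made by the authors, as the values show, since some are not whole. Per the submitters' processing notes, which state no role or version, the tools included TopHat2, Partek, Trim Galore and Bowtie2, with HOMER and MACS2, and the genome was mm10. How reads were counted, and whether by strand, is not given in the sources used here. No label holds the column name of the treated CD106+ table, which was matched to its sample because only that sample's description names the table.

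Members, lists and tests were chosen with earlier results of these data known. Counts were rounded. Each tested comparison was fitted on its own whole table with edgeR 4.0.16 (R 4.3.3; TMM, filterByExpr, robust quasi-likelihood test, Benjamini-Hochberg adjustment over all genes, threshold 0.05), and SE is the log2 fold change divided by the root of F. All 10 members passed the filter in both. Untested comparisons used log2 ratios of CPM plus 1. Named beside the members were up to 8 genes of each wider list by smallest p, up to 4 by largest ratio where untested, and a set of check genes; where fewer are described, the rest are given as counts. Other settings were other scalings, no filter, DESeq2 1.42.0, a replicate block, each library left out, covariates and other pseudocounts. A fit that leaves a group with 1 library assumes that it varies like the other group. On simulated counts, edgeR recovered 62.9% of genes changed by 2 on the log2 scale in the mesenchyme design, over 10860 genes, and 77.3% in the CD106 design, over 12092 genes. At a change of 1 it recovered 15.8% and 29.6%, and 6 of 77 and 23 of 127 calls were false. Replicate pairs differed by more than sampling noise, at 9.94 to 40.4 chi-square per degree of freedom. Cells were not clustered, and no doublets were called. Positions are from RefSeq's GRCm38.p6.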

Additional observations from a re-analysis of the deposited data

Results flagged for a closer look

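The dexamethasone values of 2 fibulins pointed in opposite directions in the bulk sets. Fbln2 differed by -1.85 on the log2 scale in sorted mesenchyme, lower in every treated pool, and by 1.88 in the CD106+ cells, where the treated library was above both untreated ones. Fbln5 differed by -0.96 in mesenchyme and by 1.03 in CD106+ cells, again with no treated value within the untreated range. The difference between the sets was not tested, because the CD106+ comparison holds 1 treated library. Endothelial markers in that library stood at a sum of 2380 CPM against 122 and 95.6.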

How the results depend on the processing

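In mesenchyme the 2 members called became 0 to 2 when a library was left out (0 without dexamethasone pool 1 or 2 or saline pool 2; Fbln5 alone, 1, without dexamethasone pool 4; Lox higher and Fbln2 lower without dexamethasone pool 3), 1 with Xist as a covariate, which was Lox higher with neither fibulin called, and 0 with the chondrocyte or the cell cycle covariate. Genes called of all tested went from 306 to 598 with no filter, 512 by DESeq2, 154 with the replicate block, 186, 25 and 33 with the Xist, chondrocyte and cell cycle covariates, and 179 to 335 with a library left out. In the CD106 comparison the 6 members became 3 to 7 with a library left out, the lowest without CD106- library 1, and the 1239 genes became 546 to 2756.

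In the tested comparisons signs turned for uncalled members only. In mesenchyme Fbn1 was at -0.0080 with total counts, -0.068 to 0.18 with a library left out (-0.017 without saline pool 1), -0.48 with the chondrocyte and -0.16 with the cell cycle covariate. Fbln1 was at -0.40 to 0.021 with a library left out, highest without saline pool 2, and 0.030 with Xist, Mfap4 at -0.034 and Mfap5 at 1.41 with chondrocyte markers, and Mfap5 at 0.52 with the cell cycle. Between the fractions Fbln5 was at -0.33 to 0.032 with a library left out, highest without CD106- library 2, and in cells, with no test, Fbln5 turned from 1.11 to -0.27 without cells above 100 CPM of Pecam1.

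Within-group deviations of libraries with the same replicate number correlated little, at -0.052 and 0.055 in mesenchyme and 0.0050 between the CD106 fractions. The CD106 column names share a leading number between fractions, and whether those libraries were paired cannot be read from these correlations. With the replicate block in mesenchyme, Fbln5 was at -1.05 (edgeR adjusted p = 0.099), Adamtsl2 at 1.56 (0.12) and Lox at 1.15 (0.043). No other member's call changed in either tested comparison. Members past 2-fold numbered 5 or 6 in the dexamethasone CD106+ library and 4 in the cells under every setting tried, although without cells above 100 CPM of Pecam1 Fbln1 (1.28) took the place of Fbln5. Loxl1, Mfap5 and Fbln2, at few counts, are limited by depth. Fbln2 had 54, 55, 98 and 39 counts in the dexamethasone mesenchyme pools and 26 and 68 in the untreated CD106+ libraries.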

Other observations

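Expression of the members in the same cell was counted at 100 CPM or more, over 26 cells of 2 treatments. Eln and Mfap4 were together in 20 cells, with 3 cells reaching that level for Eln alone, 2 for Mfap4 alone and 1 for neither. Eln was together with Fbn1 in 17 cells and with Lox in 17. Lox and Loxl1 were together in 8 cells, with 11 reaching it for Lox alone and 3 for Loxl1 alone. Fbln5 reached it in 6 cells, and all 6 were also at that level for Eln, Lox and Mfap4. Fbn2 reached it in 2 cells, both saline, and both were at that level for Mfap4.

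Adamtsl2, higher in dexamethasone mesenchyme, stood at 19.5 CPM in the dexamethasone CD106+ library against 0.80 and 10.1 in the untreated ones, and at means of 491 and 153 CPM in dexamethasone and saline cells. Thsd4, lower in dexamethasone mesenchyme, stood at 27.4 CPM against 25.1 and 40.7 in the CD106+ libraries, within the untreated range. Neither of these comparisons has a test.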
